A study of Mus musculus with 13 samples.

Results

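Myosin light chains are small proteins that bind the neck of a myosin heavy chain. Each heavy chain carries an essential light chain, which stiffens the neck, and a regulatory light chain, whose phosphorylation by myosin light chain kinase tunes contraction. Striated and smooth muscle draw on different genes for the same position, and in the heart atrial and ventricular muscle are known to use different regulatory and essential chains. The genes described here are 6 of 27998 in the deposited tables, chosen by symbol. Myl2 (the ventricular regulatory chain) and Myl7 (the atrial regulatory chain) make up the regulatory pair. Myl3 (the ventricular and slow skeletal essential chain), Myl4 (the atrial and embryonic essential chain), Myl1 (the fast skeletal essential chain) and Myl6 (the smooth muscle and non-muscle essential chain) occupy the other position.

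The study sequenced single cells of wild-type C57Bl/6J mice without any treatment, from embryos without head and limbs (E8.5 and E10.5) and from hearts, taken at E12.5, at E14.5, at E16.5 and 3 days after birth (P3). Labels name 13 samples, 10 count matrices were read, and the first E8.5 replicate was left out as not analysed here. E8.5 and P3 have 1 matrix each and enter no test, since the P3 matrix pools 2 records. For each of the stages between them, 2 libraries stand as replicates. The labels do not say whether these came from separate litters, so p-values measure the spread between libraries, which may be technical. E16.5 replicate 1 likewise pools 2 records.

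Barcodes with at least 2000 UMIs (unique molecular identifiers, the count of captured RNA molecules) were kept, 80741 in all. Of these, 27492 had cardiac troponin T, Tnnt2, at or above 1500 CPM (its UMIs scaled to a barcode total of 1e6) and are called Tnnt2-high. They numbered 138 in E8.5, 122 and 109 in E10.5, 2601 and 3445 in E12.5, 3413 and 2824 in E14.5, 3943 and 3721 in E16.5 and 7176 in P3. Library totals ran from 67141166 to 259041468 UMIs, and the median Tnnt2-high barcode held 11774.5 to 21331.5 UMIs. All of Actc1, Ttn, Nkx2-5 and Actn2, further genes of heart muscle, were higher in the Tnnt2-high barcodes of every library, as in E10.5 replicate 1, where Actc1 stood at 8226 against 36.8 CPM. Pairs of libraries shared 0.714 to 1.33 times the number of barcodes that the size of the barcode list gives. At P3 the median mitochondrial share of a Tnnt2-high barcode was 22.0%, and the study's ceiling of 20% would keep 2712 of them. Tnnt2-high barcodes with under 1% mitochondrial UMIs made up 13.8% at E8.5, 11.5% and 9.17% in E10.5 and 33.4% and 32.9% in E12.5. They were 16.9% and 15.4% in E14.5, 8.52% and 6.42% in E16.5 and 0.432% in P3.

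The counts come from RNA 3′ ends, so the paired genes have to differ in sequence for their reads to be told apart. The stretch closest to the stop codon is shown for each pair, from GENCODE M21 transcripts on GRCm38, with the bases that differ within a pair in capitals. Myl2 lies at chromosome 5, 122100951 to 122113472, plus strand, and Myl7 at chromosome 11, 5896637 to 5898782, minus strand.
Myl2: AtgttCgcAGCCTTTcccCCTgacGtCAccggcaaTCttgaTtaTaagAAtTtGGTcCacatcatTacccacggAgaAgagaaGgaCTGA
Myl7: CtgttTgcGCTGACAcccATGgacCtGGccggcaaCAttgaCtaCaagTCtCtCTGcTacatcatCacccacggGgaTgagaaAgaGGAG
Over these 90 coding bases 56 were identical, or 62.2%, and the longest identical run was 8 bases, after moving Myl7 by 1 codon so that its stop codon falls outside. Myl3 lies at chromosome 9, 110741861 to 110769798, and Myl4 at chromosome 11, 104550663 to 104595753, both on the plus strand.
Myl3: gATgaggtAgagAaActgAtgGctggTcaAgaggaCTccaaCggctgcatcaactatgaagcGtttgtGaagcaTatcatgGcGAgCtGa
Myl4: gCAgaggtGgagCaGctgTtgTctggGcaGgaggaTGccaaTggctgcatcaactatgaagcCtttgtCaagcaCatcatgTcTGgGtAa
The essential pair was closer, with 70 of 90 bases or 77.8% identical and a longest run of 20. In the last 500 bases of the coding transcripts, no 60-base stretch of Myl2, Myl3, Myl4 or Myl7 occurred in a transcript of another gene. For Myl1 (chromosome 1, 66924295 to 66945404, minus strand) 23.3% of such stretches also occurred in a pseudogene, Mylf-ps. For Myl6 (chromosome 10, 128490860 to 128494145, minus strand) 25% occurred in transcripts of 5 other genes, so its level is less certain than those of the cardiac pairs.

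Tnnt2-high barcodes held more Myl7 than Myl2 up to E10.5 and more Myl2 than Myl7 from E12.5 on. Summed over Tnnt2-high barcodes, Myl7 stood at 19889 CPM at E8.5, at 13238 and 15740 in E10.5, at 7846 and 7110 in E12.5, at 4108 and 3772 in E14.5, at 3005 and 2948 in E16.5 and at 4624 in P3. Myl2 stood at 2604 CPM at E8.5, at 1951 and 2861 in E10.5, at 14564 and 12852 in E12.5, at 13796 and 14121 in E14.5, at 17025 and 16427 in E16.5 and at 14285 in P3. A UMI is counted once per captured 3′ end and is not divided by gene length. Libraries of E10.5 did not overlap with those of E12.5 for either gene. The share of all genes without such overlap was not counted, so this is a description of the values.

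At P3 the 134 barcodes from 1500 to 3000 CPM of Tnnt2 held Myl2 at 4315 and Myl7 at 4685 CPM, and the 151 barcodes from 750 to 1500 held 1437 and 561, beside 14285 and 4624 in all Tnnt2-high barcodes. Those values are sums, and the median P3 barcode from 1500 to 3000 CPM held Myl2 at 3492 and Myl7 at 243 CPM. At E16.5 the sums from 1500 to 3000 CPM were 4746 and 5322 CPM for Myl7, above the level of all Tnnt2-high barcodes, and 5205 and 4531 for Myl2. The median barcode there held Myl7 at only 193 and 181 CPM and Myl2 at 2103 and 2023, so a minority of barcodes carried the Myl7 sums. At E10.5 the 72 and 91 barcodes just below the cut held Myl7 at 7170 and 8101 CPM and those from 1500 to 3000 CPM of Tnnt2 at 11198 and 13168.

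**Figure D1:**
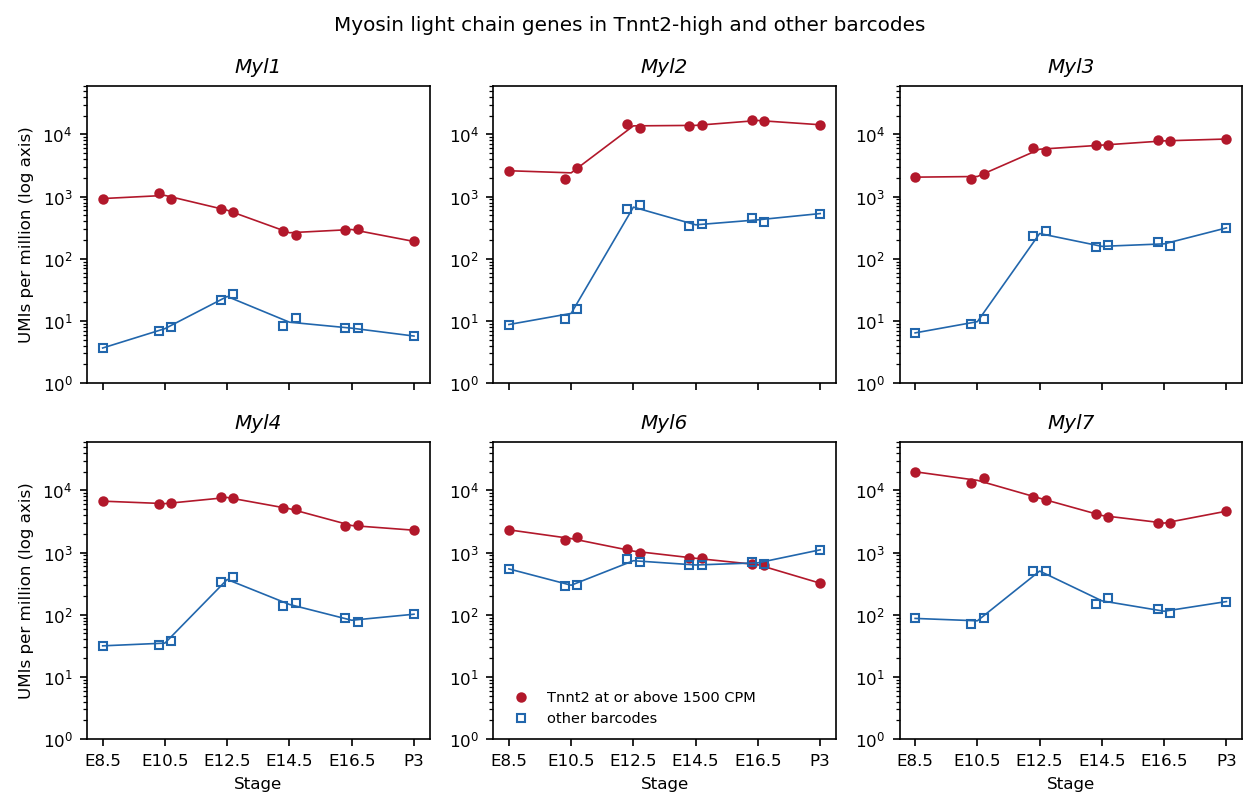
CPM of the 6 genes (log axis) by stage, summed over Tnnt2-high barcodes (filled circles) and over all other barcodes (open squares) of each library, with lines through stage means. Myl7 goes from 19889 CPM at E8.5 to 3005 and 2948 at E16.5 in Tnnt2-high barcodes while Myl2 is at 12852 or more from E12.5 on, and Myl6 is the only gene whose open squares meet the filled circles.

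Stages were compared on UMI sums per library by edgeR's quasi-likelihood test, with p-values adjusted over all genes tested. From E10.5 to E12.5 the fit called 29.4% of all genes, and 6 of 6 light chain genes were among the called. Myl2 rose by 2.66 on the log2 scale (SE 0.13, adjusted p = 6.75e-11) and Myl3 by 1.61 (SE 0.10, adjusted p = 8.49e-10). Myl4 rose by 0.48 (SE 0.08), while Myl7 fell by 0.80 (SE 0.09), Myl1 by 0.64 (SE 0.10) and Myl6 by 0.52 (SE 0.09). The step also changed the tissue dissected, from embryo to heart, and the make-up of the Tnnt2-high barcodes. Barcodes with atrial marker genes were 37.7% and 34.9% of the Tnnt2-high set at E10.5 and 10.3% and 9.40% at E12.5, and those with ventricular markers were 4.92% and 7.34%, then 27.6% and 28.0%. Stage, tissue and make-up cannot be told apart in this step. At a Tnnt2 cut of 3000 CPM, Myl4 lost its call, with a log2 difference of 0.16 (adjusted p = 0.357).

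From E12.5 to E14.5, where 36.2% of all genes were called, 4 of 6 light chain genes fell and none rose. Myl1 fell by 1.23 (SE 0.10, adjusted p = 4.70e-08), Myl7 by 0.96 (SE 0.09, adjusted p = 4.59e-07), Myl4 by 0.63 (SE 0.08) and Myl6 by 0.41 (SE 0.09). Myl2 had a log2 difference of -0.01 (SE 0.12, adjusted p = 0.981) and Myl3 of 0.19 (SE 0.09, adjusted p = 0.131). Without E12.5 replicate 1 the value for Myl3 was 0.30, with an adjusted p of 0.018, and Myl3 was called.

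From E14.5 to E16.5, with 39.5% of all genes called, Myl2 rose by 0.43 (SE 0.12, adjusted p = 0.00985), Myl3 by 0.40 (SE 0.09, adjusted p = 0.00268) and Myl1 by 0.34 (SE 0.10, adjusted p = 0.0112). Myl4 fell by 0.73 (SE 0.08, adjusted p = 8.15e-07). The values were -0.23 for Myl7 (SE 0.09, adjusted p = 0.0572, and 0.037 with a replicate block, where it was called) and -0.17 for Myl6 (SE 0.09, adjusted p = 0.134). This step leaned on scaling and on single libraries: with library size alone Myl1 and Myl2 were not called and Myl6 and Myl7 were called lower. Without E14.5 replicate 1 Myl2 had an adjusted p of 0.066, and without E14.5 replicate 2 Myl1 had one of 0.156.

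Among the essential chains, Myl4 was the most abundant up to E12.5 and Myl3 from E14.5 on. Myl3 stood at 2053 CPM at E8.5, at 1904 and 2301 in E10.5, at 6092 and 5459 in E12.5, at 6641 and 6805 in E14.5, at 8016 and 7718 in E16.5 and at 8421 in P3. Myl4 stood at 6704 CPM at E8.5, at 6016 and 6219 in E10.5, at 7920 and 7449 in E12.5, at 5111 and 5017 in E14.5, at 2705 and 2728 in E16.5 and at 2286 in P3. Myl1 was lower than either throughout, from 1159 and 927 CPM at E10.5 to 288 and 302 in E16.5 and 190 in P3. Myl6 went from 2317 CPM at E8.5 to 653 and 619 in E16.5 and 321 in P3, with E12.5 libraries at 1129 and 978 and E14.5 libraries at 813 and 803.

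Myog or Myod1, transcription factors of skeletal myoblasts, had a UMI in 12 of 122 and 6 of 109 Tnnt2-high barcodes of E10.5. Those barcodes held Myl1 at 2611 and 2819 CPM and Myl4 at 2500 and 2916 CPM, with Myl7 at 15.8 and 10.8. The other Tnnt2-high barcodes of E10.5 held Myl1 at 1043 and 797 CPM and Myl7 at 14302 and 16827. Leaving the first kind out changed no call of the step to E12.5. From E12.5 on, the 7 to 17 such barcodes of a library held Myl2 at 5482 CPM or more. Their Myl1 was 1288 and 981 CPM in E12.5, against 640 and 562 in the rest, 115 and 436 in E14.5, against 281 and 243, and 908 and 1565 in E16.5, against 287 and 297.

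Single barcodes were then split by chamber with genes that are not light chains. These genes were chosen with earlier results of these data known, so the tests between the marked sets are not independent of those results. A Tnnt2-high barcode was atrial-marked when it held at least 2 UMIs of Nr2f1, Nr2f2, Stard10 and Kcna5 and none of Irx4 and Hey2, and ventricular-marked in the opposite case. Nr2f1 and Nr2f2 are transcription factors of atrial muscle, and Irx4 and Hey2 of ventricular muscle. Atrial-marked barcodes numbered 268 and 324 in E12.5, 259 and 156 in E14.5, 300 and 292 in E16.5 and 1345 in P3, and ventricular-marked ones 718 and 964, 1292 and 919, 1614 and 1168, and 1232. At E10.5 there were 46 and 38 atrial-marked barcodes against 6 and 8. The atrial-marked set of E10.5 also held Mylpf, the fast skeletal regulatory chain, at 1276 and 856 CPM, against 81.0 and 113 CPM in the ventricular-marked set.

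In atrial-marked barcodes Myl7 stayed high at every stage, at 22295 CPM at E8.5, 15702 and 14862 in E10.5, 23328 and 19715 in E12.5, 20229 and 19980 in E14.5, 25008 and 24009 in E16.5 and 22334 in P3. In ventricular-marked barcodes it stood at 18066 CPM at E8.5, 4232 and 11328 in E10.5, 5109 and 4879 in E12.5, 2081 and 2131 in E14.5, 620 and 577 in E16.5 and 185 in P3. The marked sets nearly met at E8.5, with 41 atrial-marked and 19 ventricular-marked barcodes, and lay 121-fold apart at P3. At E10.5 they lay 3.71- and 1.31-fold apart. The P3 ventricular level was close to that of endothelial-range barcodes of the same matrix, 149 CPM, a cell type that should lack cardiac chains. Ventricular-marked Myl7 fell by 2.87 from E12.5 to E16.5 (SE 0.09, adjusted p = 8.31e-17), in a fit that called 55.4% of all genes. Atrial-marked Myl7 rose by 0.30 (SE 0.08, adjusted p = 0.00819), in a fit that called 26.8% of all genes, and the adjusted p was 0.076 without E12.5 replicate 2 and 0.102 without E16.5 replicate 1.

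**Figure D2:**
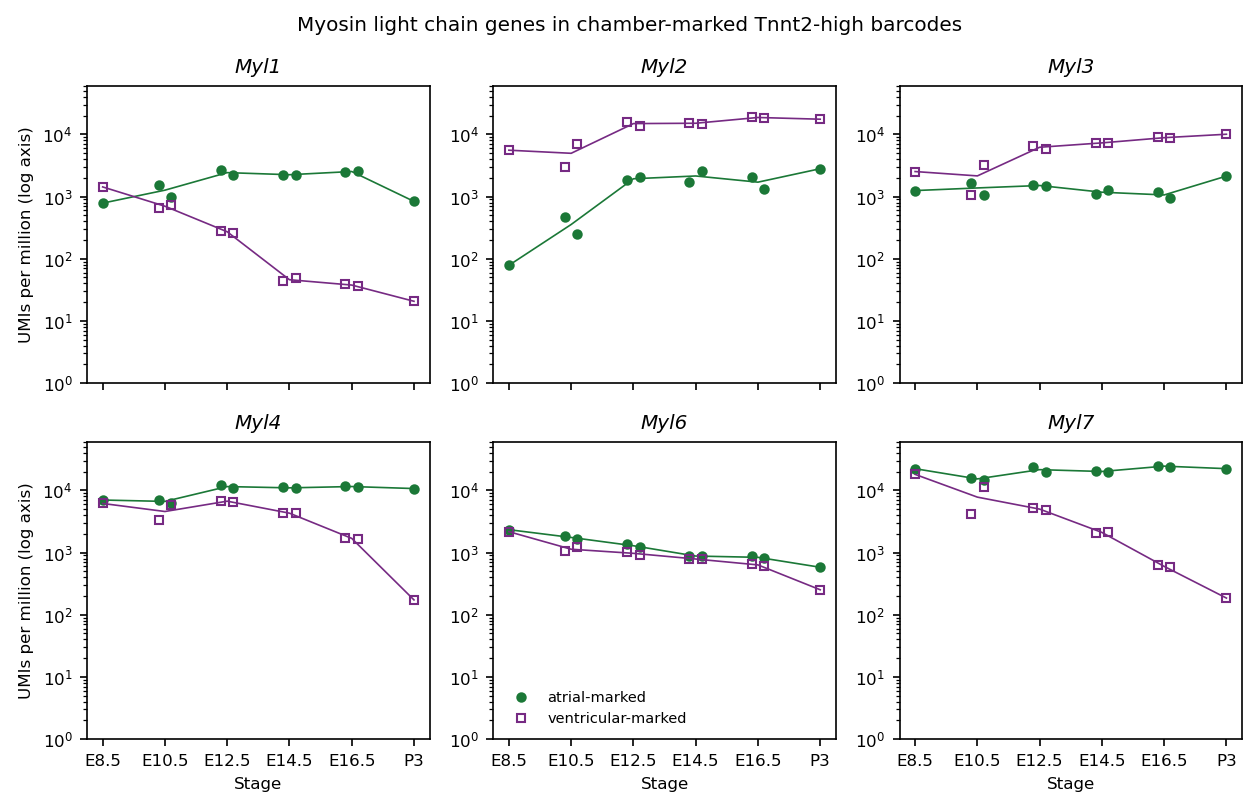
CPM of the 6 genes (log axis) by stage, summed over atrial-marked (filled circles) and ventricular-marked (open squares) Tnnt2-high barcodes of each library, with lines through stage means. Myl7 and Myl4 start near each other at E8.5 and separate to 22334 against 185 CPM and 10690 against 173 CPM at P3. Myl2 is lower in the atrial-marked set in every library, and Myl3 in every library except E10.5 replicate 1.

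The essential chain Myl4 was 6991 CPM in atrial-marked and 6154 in ventricular-marked barcodes at E8.5. At E10.5 it was 7111 and 6167 CPM against 3323 and 5817. Ventricular-marked values were 6816 and 6583 CPM at E12.5, 4287 and 4306 in E14.5, 1711 and 1668 in E16.5 and 173 in P3. Atrial-marked values stayed between 10690 and 12049 CPM from E12.5 to P3. In ventricular-marked barcodes Myl4 fell by 1.80 from E12.5 to E16.5 (SE 0.07, adjusted p = 8.16e-15). The atrial-marked value was 0.11 (SE 0.07, adjusted p = 0.268).

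Myl1, better known from skeletal muscle, also parted by chamber. Ventricular-marked Myl1 was 1429 CPM at E8.5, 280 and 264 in E12.5, 43.9 and 48.2 in E14.5, 38.8 and 36.7 in E16.5 and 20.7 in P3. At E10.5 it was 666 and 733 CPM in 6 and 8 barcodes, against 1541 and 994 in 46 and 38 atrial-marked barcodes. Only 41 and 36 of these atrial-marked barcodes had no UMI of Myog or Myod1. The part of the rest in the Myl1 level was not tested. Atrial-marked Myl1 was 784 CPM at E8.5, 2671 and 2183 in E12.5, 2248 and 2243 in E14.5, 2522 and 2538 in E16.5 and 836 in P3. At E8.5 the ventricular-marked set was the higher, and from E12.5 on the atrial-marked set was higher in every library. Ventricular-marked Myl1 fell by 2.66 from E12.5 to E16.5 (SE 0.10, adjusted p = 3.99e-15), against an atrial-marked value of 0.17 (SE 0.09, adjusted p = 0.206).

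In every library Myl2 was higher in ventricular-marked than in atrial-marked barcodes, and from E12.5 on so was Myl3. The ventricular-marked sets were small before E12.5, with 19 barcodes at E8.5 and 6 and 8 at E10.5. Myl2 in ventricular-marked barcodes was 5568 CPM at E8.5, 2953 and 6977 in E10.5, 15961 and 13874 in E12.5, 15257 and 14955 in E14.5, 18817 and 18584 in E16.5 and 17544 in P3. In atrial-marked barcodes it was 78.4 CPM in E8.5, 463 and 248 in E10.5, and between 1326 and 2805 from E12.5 to P3. Beside those sums, the median atrial-marked barcode at E16.5 held 1.52% and 1.24% of its Myl2 and Myl7 UMIs as Myl2. Myl3 in ventricular-marked barcodes went from 2526 CPM at E8.5 to 8929 and 8772 in E16.5 and 10056 in P3, and in atrial-marked barcodes it was 1249 in E8.5, 1190 and 935 in E16.5 and 2136 in P3. At E10.5 the libraries differed in direction, with Myl3 at 1679 and 1073 CPM in atrial-marked and at 1045 and 3255 in ventricular-marked barcodes. From E12.5 to E16.5 ventricular-marked Myl3 rose by 0.70 (SE 0.10, adjusted p = 3.77e-06) and Myl2 by 0.51 (SE 0.16, adjusted p = 0.00887). The call of Myl2 was lost without E12.5 replicate 2 (adjusted p = 0.078), with library size alone (0.072), in DESeq2 (0.146) and at a Tnnt2 cut of 3000 CPM (0.072). Atrial-marked Myl3 fell by 0.39 (SE 0.10, adjusted p = 0.00542), which was not called without E16.5 replicate 2 (adjusted p = 0.181) or with 1 UMI of the chamber list in place of 2 (0.639), and atrial-marked Myl2 had a value of -0.07 (SE 0.16, adjusted p = 0.808).

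Atrial-marked and ventricular-marked sums were compared directly within each stage. At E12.5, with 34.3% of all genes called, 4 light chain genes were higher in atrial-marked barcodes and 2 lower. Myl1 was higher by 3.06 on the log2 scale (SE 0.10), Myl7 by 2.01 (SE 0.08), Myl4 by 0.68 (SE 0.07) and Myl6 by 0.31 (SE 0.09), while Myl2 had a difference of -3.05 (SE 0.17) and Myl3 of -2.14 (SE 0.10). At E14.5 the fit called 33.5% of all genes and the atrial minus ventricular differences were 5.49 for Myl1, 3.14 for Myl7, 1.23 for Myl4, -2.94 for Myl2 and -2.76 for Myl3, all called, and 0.04 for Myl6 (adjusted p = 0.783). At E16.5 it called 35.7%, and the differences were 5.89 for Myl1, 5.18 for Myl7, 2.59 for Myl4, -3.63 for Myl2 and -3.23 for Myl3. The adjusted p of these 5 genes was at most 1.13e-07 in any of the stages. Myl6 was at 0.23 at E16.5 (SE 0.09, adjusted p = 0.049), a call that was lost without either library of that stage.

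The chamber difference itself changed between E12.5 and E16.5 for 4 of the 6 genes, in a test that called 11.6% of all genes. It widened by 3.17 for Myl7 (SE 0.12, adjusted p = 5.49e-14), by 2.83 for Myl1 (SE 0.14, adjusted p = 3.31e-12) and by 1.91 for Myl4 (SE 0.10, adjusted p = 8.36e-12), all toward the atrial side. Myl3 moved by -1.09, toward the ventricular side (SE 0.14, adjusted p = 1.36e-05). Myl2 moved by -0.58 (SE 0.22, adjusted p = 0.105). With the library as a replicate block, since both sums of a pair come from the same library, its value was -0.62 with an adjusted p of 0.021, and Myl2 was called. It was called also without E16.5 replicate 1, at -0.88 (adjusted p = 0.030). Myl6 had a value of -0.08 (SE 0.13, adjusted p = 0.783).

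Single barcodes could hold both regulatory chains. After each barcode was thinned to 2000 UMIs, a gene counted as present at 5 or more UMIs, which is 2500 CPM. Both Myl2 and Myl7 were present in 35.5% of Tnnt2-high barcodes at E8.5 (exact 95% interval 27.6 to 44.1), in 23.0% and 35.8% in E10.5, 69.1% and 67.3% in E12.5, 27.0% and 28.9% in E14.5, 5.55% and 4.89% in E16.5 and 1.10% in P3 (0.873 to 1.37). Intervals cover counting error only. Endothelial-range barcodes, which should lack these chains, held both in 0% to 0.269%, and erythroid barcodes in 0% to 0.926%. The median depth of these sets was 9162 to 31290 UMIs against 11770 to 21330 in Tnnt2-high barcodes. Both sets were drawn only from barcodes that were not Tnnt2-high. Droplets that also held much heart muscle RNA could thus be left out of them beforehand. Their low shares therefore do not measure how often doublets or free RNA give both genes. Among Tnnt2-high barcodes the share with both genes peaked at E12.5, and both libraries of that stage were above those of all other stages. Stage means were 29.4%, 68.2%, 28.0% and 5.22% from E10.5 to E16.5, and they differed in an exact permutation test of 105 regroupings of the 8 libraries (1-sided on F, p = 0.0286, where the smallest possible is 0.00952). The shares depend on the cut. With presence at 2 or more UMIs the stage means were 42.5%, 86.8%, 59.3% and 26.2%, with E14.5 above E10.5. With presence at 10 or more UMIs they were 16.9%, 38.1%, 10.35% and 1.15%. Among barcodes with at least 1% mitochondrial UMIs, at the cut of 5 UMIs, they were 26.35%, 63.4%, 27.4% and 5.03%. Summed Myl7 of ventricular-marked barcodes went from 5109 and 4879 CPM at E12.5 to 2081 and 2131 at E14.5, across the 2500 CPM cut. That cut applies to single barcodes and not to sums, and the part of this fall in the shares was not tested.

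The share differed between the marked sets, which together left out most Tnnt2-high barcodes of every library. In E12.5 replicate 1, 10.3% were atrial-marked and 27.6% ventricular-marked, and at P3 18.7% and 17.2%. Marking also favoured deep barcodes. In E12.5 replicate 1, 711 of 718 ventricular-marked barcodes had at least 5000 UMIs, against 2118 of 2601 Tnnt2-high ones. At E8.5, 12 of 19 ventricular-marked barcodes held both genes (63.2%, interval 38.4 to 83.7) and 0 of 41 atrial-marked barcodes did, which allows a share of up to 8.60% at the upper end of the exact interval. In ventricular-marked barcodes both genes were present in 76.9% and 72.9% in E12.5, 27.9% and 29.5% in E14.5, 3.90% and 4.20% in E16.5 and 0.244% in P3. In atrial-marked barcodes the share was 8.58% and 11.7% in E12.5, 3.86% and 5.77% in E14.5, 2.67% and 1.71% in E16.5 and 2.45% in P3. At P3, with 1 matrix and no test, the exact intervals were 1.70 to 3.43 for atrial-marked and 0.0503 to 0.710 for ventricular-marked barcodes. They cover counting error over barcodes, not spread between libraries, doublets or impure marking, so they do not compare the sets.

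**Figure D3:**
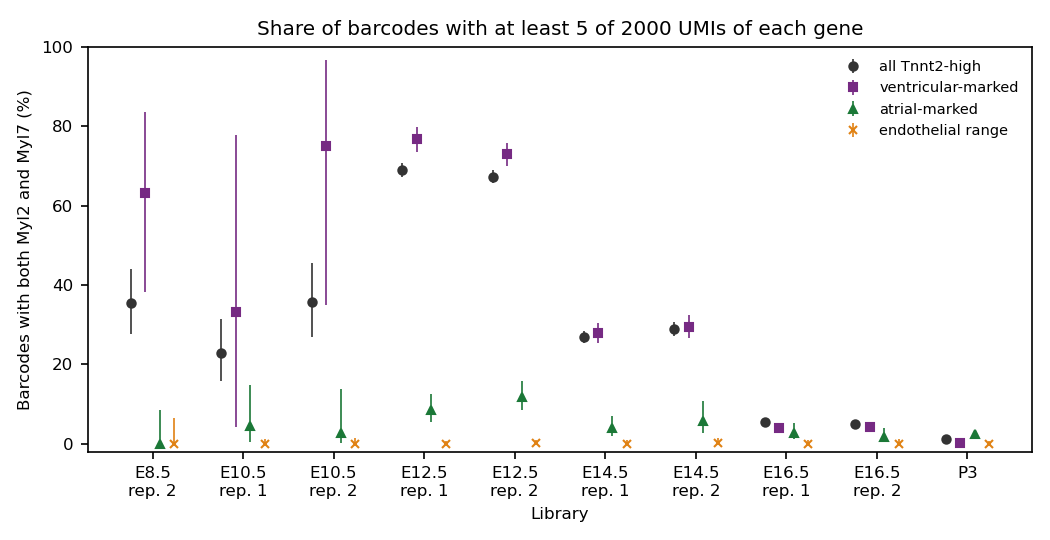
Share of barcodes with at least 5 of 2000 thinned UMIs of both Myl2 and Myl7, per library, with exact 95% binomial intervals, for all Tnnt2-high, ventricular-marked, atrial-marked and endothelial-range barcodes. Ventricular-marked barcodes reach 76.9% and 72.9% at E12.5 and 0.244% at P3. Endothelial-range barcodes, drawn only from those that were not Tnnt2-high, lie at or below 0.269% in every library.

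At E8.5 no Tnnt2-high barcode held Myl2 alone, and 64.5% held Myl7 alone. At E10.5 Myl7 alone was found in 57.4% and 53.2%. At E12.5 Myl2 alone was found in 17.5% and 19.0%, at E14.5 in 61.1% and 59.99%, at E16.5 in 81.2% and 82.6% and at P3 in 81.6%. Myl7 alone made up 12.6% and 12.45% in E12.5, 9.79% and 8.18% in E14.5, 9.64% and 9.78% in E16.5 and 16.7% in P3.

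The Myl2 part, the share of a barcode's Myl2 and Myl7 UMIs that were Myl2, was taken in Tnnt2-high barcodes with at least 20 UMIs of the pair. Its median was 4.10% in E8.5, 2.31% and 5.86% in E10.5, 78.0% and 76.1% in E12.5, 90.4% in both E14.5 libraries, 97.5% and 97.6% in E16.5 and 98.9% in P3. The stage values from E10.5 to E16.5 differed in the exact permutation test (1-sided on F, p = 0.00952, the smallest that 105 regroupings can give). The distribution had a single low peak with a tail at E8.5 and E10.5, a low peak and a broad upper peak at E12.5 and E14.5, and narrow peaks near both ends at E16.5 and P3. Barcodes between 10% and 90% made up 41.6% in E8.5, 38.6% and 46.1% in E10.5, 76.9% and 79.3% in E12.5, 38.9% and 40.6% in E14.5, 6.71% and 6.45% in E16.5 and 1.19% in P3. Under the study's mitochondrial ceilings the share was 23.1% in E10.5 replicate 1 and 2.17% in P3, and the P3 share below 10% was 42.8% in place of 16.8%. The share with both genes was then 1.99% in P3.

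**Figure D4:**
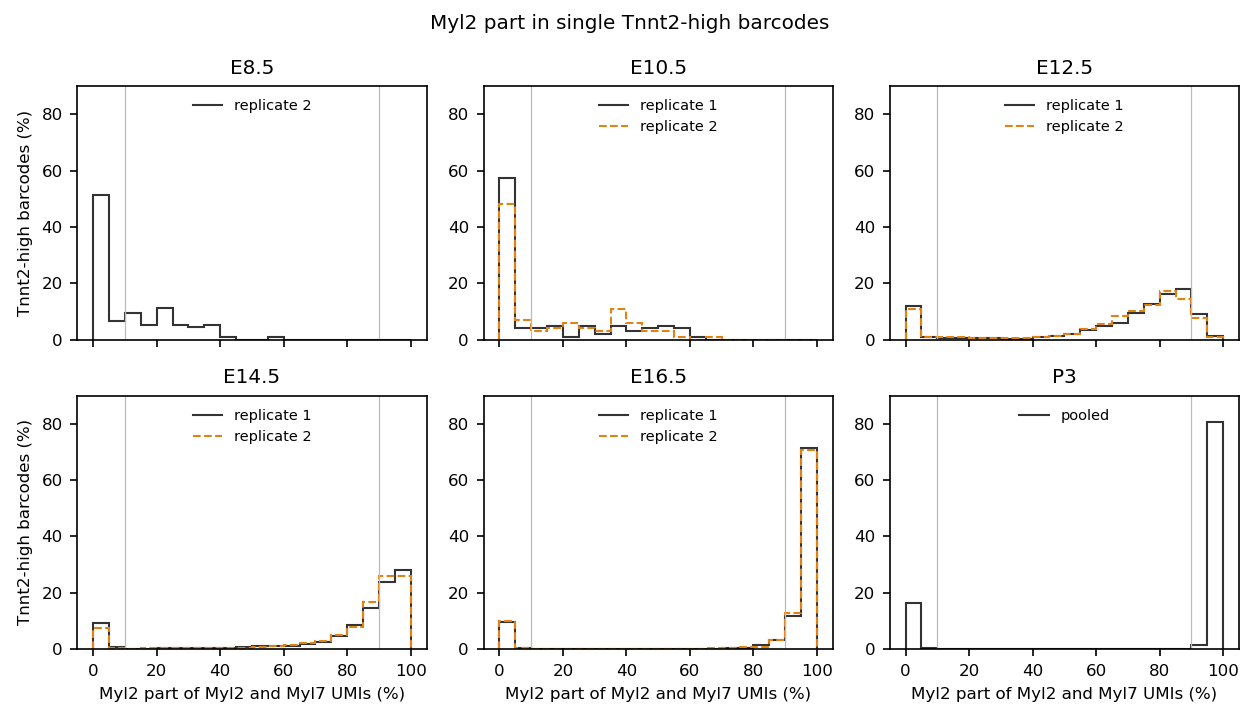
Distribution of the Myl2 part of Myl2 and Myl7 UMIs in single Tnnt2-high barcodes with at least 20 UMIs of this pair and of Myl3 and Myl4, in bins of 5%, 1 line per library, with grey lines at 10% and 90%. The 2 libraries of a stage lie close together, the bulk moves from below 10% in E8.5 to a broad peak around 80% in E12.5, and at P3 the middle is almost empty.

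Doublets, droplets with more than 1 cell, could mix an atrial and a ventricular cell. Scrublet scored barcodes by likeness to simulated mixtures, with Myl2 and Myl7 among the input genes. A barcode with a mixed pair can therefore score high through the pair itself, so the scores are not independent of the Myl2 part. The number marked was set beforehand from the barcode count, 450 at P3, where Scrublet's own threshold marked 5. At P3, 49.4% of the barcodes between 10% and 90% were among the highest Scrublet doublet scores, against 4.27% of the other Tnnt2-high barcodes. At E8.5 the order was the reverse, 1.75% against 13.75%, as it was at E10.5, 5.13% and 6.38% against 25.8% and 16.4%. At E12.5 the same shares were 4.33% and 5.51% against 4.19% and 6.80%, and at E14.5 6.29% and 4.36% against 4.35% and 4.02%. At E16.5 they were 8% and 10.6% against 5.64% and 5.47%. With the high-scoring barcodes removed, the share with both genes was 69.9% and 68.4% in E12.5, 27.1% and 29.2% in E14.5 and 0.557% in P3.

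Chamber-marked barcodes were pure to different degrees. Among ventricular-marked barcodes a Myl2 part below 10% was found in 0% and 0.104% at E12.5 and in none at E14.5, E16.5 and P3. Among atrial-marked barcodes a part above 90% was found in 2.24% and 0.940% in E12.5, 5.10% and 7.10% in E14.5, 8.33% and 9.06% in E16.5 and 14.3% in P3. The atrial list thus also took in barcodes with a ventricular light chain profile.

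The essential chains moved with the regulatory ones in the same barcodes. The Myl3 part of Myl3 and Myl4 UMIs had a median of 14.05% at E8.5 in barcodes with a Myl2 part below 10% and of 31.5% in those between 10% and 90%. At E12.5 the medians were 5.75% and 4.78% below 10%, 46.5% and 44.9% between, and 51.1% and 50.2% above 90%. At E16.5 they were 2.13% and 1.84%, 67.2% and 69.9%, and 88.2% and 88.3%. At P3 they were 3.50%, 59.9% and 99.2%. Barcodes of E12.5 with almost pure Myl2 thus still held Myl3 and Myl4 in near equal numbers. Median Myl1 at E16.5 was 2615 and 2630 CPM below 10% and 0 above 90%. Early it was not higher on the low side in every library: at E8.5 it was 629 CPM below 10% and 1145 between, and at E10.5 723 and 549 below 10% and 706 and 812 between.

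**Figure D5:**
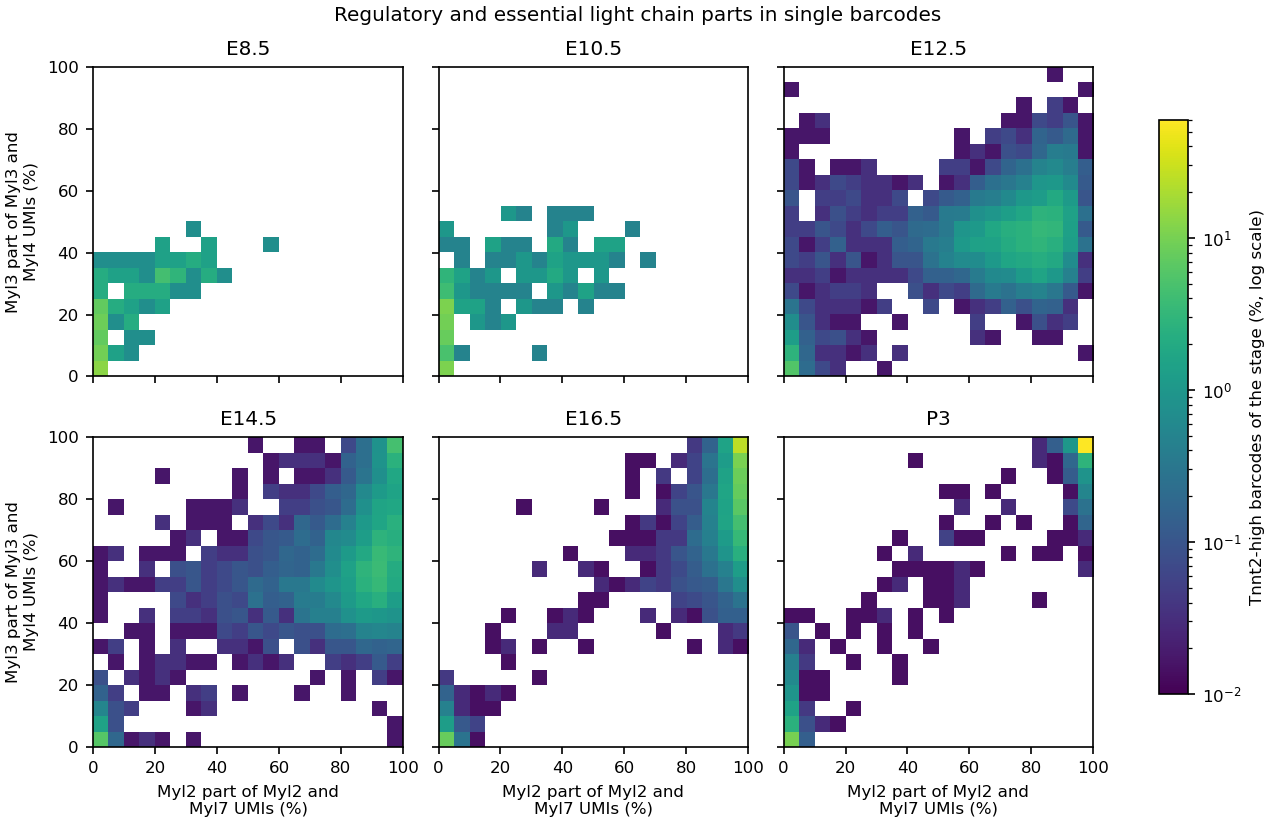
Share of Tnnt2-high barcodes of each stage (colour, log scale) by the Myl2 part of Myl2 and Myl7 UMIs (x axis, %) and the Myl3 part of Myl3 and Myl4 UMIs (y axis, %), in bins of 5%, for barcodes with at least 20 UMIs of each pair. The cloud at high Myl2 parts climbs from medians near 51.1% at E12.5 to 99.2% at P3 on the y axis, and barcodes with a Myl2 part over 90% and a Myl3 part under 25% make up at most 0.118% of a stage.

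In every library, the 5 muscle genes were much lower outside the Tnnt2-high barcodes. At E10.5 the Tnnt2-high minus other log2 difference lay between 7.03 for Myl1 and 7.67 for Myl3, and it was 2.41 for Myl6 (SE 0.09), with all 6 called against 41.7% of all genes, whose median stood at -0.23. At E12.5, where 72.0% of all genes were called, it lay between 3.86 for Myl7 and 4.57 for Myl1, and at E14.5, with 71.4% called, between 4.43 for Myl7 and 5.28 for Myl3. At E16.5, with 74.0% called, it lay between 4.43 for Myl7 and 5.23 for Myl3. With such backgrounds a call alone says little. The classes were also cut on Tnnt2, itself a heart muscle gene, so the cut favoured higher cardiac chains in Tnnt2-high barcodes beforehand. The sizes describe the classes and are no independent evidence. Myl6 went from 0.48 in E12.5 (SE 0.08) to 0.22 in E14.5 (SE 0.08, adjusted p = 0.0212), a call lost in DESeq2 and without either E14.5 library, and to -0.37 in E16.5 (SE 0.08, adjusted p = 0.000458), where library size alone gave -0.10 (adjusted p = 0.207).

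What the other barcodes held of cardiac chains was mostly small, and it differed between ranges. At P3 endothelial-range barcodes (Cdh5 and Pecam1), macrophage-range barcodes (Fcer1g, C1qb and Tyrobp) and fibroblast-range barcodes (Col1a1, Col3a1 and Pdgfra) held Myl2 at 483, 620 and 580 CPM. What is called the fibroblast range for short was listed for fibroblasts and mesenchyme, and its genes do not tell these apart at any stage. At E14.5 Myl2 was 151 and 129 CPM in erythroid and 340 and 342 in endothelial-range barcodes. At E12.5 Myl7 was 204 and 146 CPM in erythroid and 621 and 618 in fibroblast-range barcodes. At E10.5, where few cells of the suspension were Tnnt2-high, endothelial-range barcodes held Myl2 at 3.88 and 4.28 CPM and Myl7 at 22.0 and 20.8. From E12.5 to E16.5 the other barcodes as a whole fell in Myl4 by 1.80 (SE 0.10, adjusted p = 1.41e-07), in Myl7 by 1.77 (SE 0.11, adjusted p = 2.49e-07) and in Myl1 by 1.32 (SE 0.14, adjusted p = 1.43e-05), with 51.3% of all genes called. Myl2 fell by 0.30 (SE 0.09, adjusted p = 0.0154), a call that was lost without E12.5 replicate 2 or E16.5 replicate 2 and with doublets removed (-0.04, adjusted p = 0.744), and that reversed at a Tnnt2 cut of 750 CPM (0.27). Myl3 had a value of -0.18 (adjusted p = 0.136). Myl6 rose by 0.26 (SE 0.08, adjusted p = 0.0184), but had a value of -0.11 with library size alone, a scaling that moved the median of all genes by -0.37, and its call was lost without E12.5 replicate 2 or E16.5 replicate 1. Globin UMIs of the other barcodes stood at 153363 and 151426 CPM at E12.5 and at 301888 and 328942 at E16.5, and their part in these values was not tested.

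Myl7 stood apart in epicardial-range barcodes, which carry Wt1, Upk3b and Upk1b. They held Myl7 at 436 and 467 CPM at E10.5, 2358 and 2210 in E12.5, 1109 and 1293 in E14.5, 1156 and 1089 in E16.5 and 809 in P3. Endothelial-range barcodes held 22.0 and 20.8, 233 and 209, 78.1 and 110, 119 and 73.5, and 149 CPM. Epicardial-range Myl2 was 579 and 520 CPM at E12.5 and 431 and 321 at E16.5, near the endothelial-range values of 429 and 420, and 468 and 464. The ratio of Myl7 to Myl2 was 4.07 and 4.25 at E12.5 in the epicardial range against 0.543 and 0.498 in the endothelial range, and 2.68 and 3.39 against 0.254 and 0.158 at E16.5. Fibroblast-range barcodes lay between, at 1.14 and 1.11 in E12.5 and 0.408 and 0.341 in E16.5, and the ratio of Myl4 to Myl2 was 0.585 and 0.733 in the epicardial range against 0.601 and 0.628 in the endothelial range at E12.5. Ranges other than the erythroid one were not exclusive. A barcode could thus count in both the epicardial and the fibroblast range, and the overlap was not counted. The epicardial ranges held 214 and 288 barcodes at E12.5, 67 and 39 in E16.5 and 22 in P3, and the pattern was chosen after its values were seen.

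Myl6 had the broadest distribution. In smooth muscle-range barcodes (Myh11, Acta2 and Tagln) it stood at 1264 and 1119 CPM at E12.5, 1197 and 1262 in E14.5, 1468 and 1574 in E16.5 and 1721 in P3, and in fibroblast-range barcodes at 1073 and 962, 843 and 861, 1029 and 1043, and 1154 CPM. The smooth muscle list did not single out smooth muscle before birth. In every library before P3 its sum was higher in Tnnt2-high than in other barcodes. In E16.5 replicate 1 the sums were 1037 against 249 CPM, and at P3 564 against 1138. Erythroid barcodes, with at least 10% globin UMIs, were the lowest range in every library, at 246 and 227 CPM at E12.5 and 79.6 and 87.7 at E16.5. Within Tnnt2-high barcodes Myl6 fell in ventricular-marked barcodes by 0.43 from E12.5 to E16.5 (SE 0.09, adjusted p = 0.00029) and in atrial-marked ones by 0.51 (SE 0.09, adjusted p = 0.000178).

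A further 19 genes of myosin II and its regulation were listed, among them the heavy chains Myh6 and Myh7, the kinases Mylk, Mylk2, Mylk3 and Mylk4 and phosphatase subunits. In atrial-marked against ventricular-marked barcodes at E16.5, 16 were tested, 5 were higher and 4 lower, where 35.7% of all genes were called, and their median log2 difference was -0.04 beside -0.01 for all genes. Mylk, the smooth muscle and non-muscle kinase, was higher by 3.35 (SE 0.27, adjusted p = 1.66e-09), Myh6, the alpha heavy chain, by 2.33 (SE 0.09) and Myh7, the beta heavy chain, stood at -3.03 (SE 0.15). Mylk4 was called too, at no more than 2.82 CPM in these sums. At E12.5 4 of 16 were higher and 6 lower, and at E14.5 5 and 6, where 34.3% and 33.5% of all genes were called. The chamber difference changed between E12.5 and E16.5 for 4 of 16, all toward the atrial side, in a test that called 11.6% of all genes. The largest changes were those of Myl12a, a non-muscle regulatory chain (0.57, SE 0.13, adjusted p = 0.00566), and Myh6 (0.49, SE 0.13, adjusted p = 0.0126).

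In Tnnt2-high barcodes 7 of 17 listed genes rose and 5 fell from E10.5 to E12.5, where 29.4% of all genes were called, among them Mylpf, which fell by 4.39 (SE 0.09, adjusted p = 2.84e-16) from 785 and 628 to 30.6 and 30.2 CPM, and Myh7, which rose by 2.06 (SE 0.13, adjusted p = 1.07e-09). From E12.5 to E14.5 4 rose and 4 fell, beside 36.2% of all genes called. From E14.5 to E16.5 6 rose and 5 fell, beside 39.5%, with Myh6 (1.00, SE 0.08) and Myh7 (0.99, SE 0.12) among the rises. In the other barcodes from E12.5 to E16.5 7 of 16 rose and 8 fell, beside 51.3% of all genes called, the largest rise being Myh11, the smooth muscle heavy chain (3.63, SE 0.31, adjusted p = 3.36e-06), at 2.41 and 1.73 CPM at E16.5. In Tnnt2-high against other barcodes 11 of 18 were higher and 1 lower at E10.5, 8 and 4 in E12.5, 9 and 5 in E14.5 and 10 and 7 in E16.5, where 41.7%, 72.0%, 71.4% and 74.0% of all genes were called. Myh6 and Myh7, heart muscle genes like the Tnnt2 that defined the classes, had the largest values at E10.5, E12.5 and E16.5. At E14.5 their values were 5.08 for Myh7 and 4.81 for Myh6, and Mylk4 and Mylk2, both under 1 CPM in either class, lay further from 0, with Mylk4 higher and Mylk2 lower in Tnnt2-high barcodes. From E12.5 to E16.5 ventricular-marked barcodes had 6 of 16 higher and 6 lower, with 55.4% of all genes called, and atrial-marked ones 7 and 3, with 26.8%.

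The P3 barcodes carry 2 well numbers, which the labels tie to no sample. Tnnt2-high barcodes held Myl7 at 4155 and 5822 CPM and Myl2 at 15181 and 11998 in the 2 wells, and a Myl2 part below 10% was found in 15.2% and 19.1%. Under the study's ceiling of 20% mitochondrial UMIs, 1206 atrial-marked and 264 ventricular-marked barcodes of P3 would remain of 1345 and 1232, so atrial and ventricular shares at P3 rest on that choice.

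Likeness to other genes was measured by the correlation of log2(CPM + 1) over the 14 atrial-marked and ventricular-marked sums of the 7 heart matrices, among 2192 genes with a mean of at least 50 CPM. These sums share libraries and chambers, so the values are a description. Closest to Myl7 were Gpx3 (r = 0.990), Gucy1a3 (0.989) and Gja5 (0.986), closest to Myl4 Mcam (0.960), Cd24a (0.955) and Sep15 (0.953), and closest to Myl1 Peg3 (0.982), Cacna2d2 (0.978) and Arhgap1 (0.972). Myl2 was closest to Lbh (0.970), Ammecr1 (0.966) and Vdac2 (0.956), and Myl3 to Ammecr1 (0.973), Ndufaf4 (0.966) and Cystm1 (0.962). Myl6 was closest to Zmat2 (0.985), Krtcap2 (0.985) and Imp3 (0.983).

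Promoters of an atrial and a ventricular member are shown because the genes moved apart between chambers. RefSeq promoters on GRCm38.p6 were used, cut to the 250 bases before the RefSeq start. For Myl3 this window lies inside the GENCODE span given above, 110741861 to 110769798, so the annotations differ in start. For Myl7 it adjoins the end of the GENCODE span at 5898782. Capitals mark matches on either strand to a CArG box (the serum response factor site), TGATAA (a motif of the zinc finger factors of the heart) and AAGTG (a motif of the homeobox factor Nkx2-5).
Myl3 (chr9:110763428-110763677, plus strand): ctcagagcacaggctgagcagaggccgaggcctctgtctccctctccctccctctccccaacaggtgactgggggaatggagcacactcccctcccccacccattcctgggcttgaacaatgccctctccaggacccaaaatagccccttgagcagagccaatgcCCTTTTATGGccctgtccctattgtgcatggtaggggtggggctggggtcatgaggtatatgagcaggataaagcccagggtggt
Myl7 (chr11:5898783-5899032, minus strand): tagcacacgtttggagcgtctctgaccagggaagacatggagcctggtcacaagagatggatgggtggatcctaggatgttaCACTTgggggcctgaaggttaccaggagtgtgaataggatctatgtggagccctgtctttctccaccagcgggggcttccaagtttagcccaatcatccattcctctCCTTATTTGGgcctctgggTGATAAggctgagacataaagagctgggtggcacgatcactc
Each held 1 CArG box, from -85 to -76 in Myl3 and from -61 to -52 in Myl7, where 1.47% of all 32851 promoters of the table held one. Myl7 also held TGATAA from -42 to -37 (7.94% of promoters) and AAGTG from -168 to -164 (40.7%), neither of which occurred in this window of Myl3. Each held 1 CANNTG, at -189 to -184 in Myl3 and -168 to -163 in Myl7, where it overlaps AAGTG, as did 66.2% of promoters. The motif AGATAA (9.99% of promoters) had no match in either window, nor did the T-box motif AGGTGT (11.8% of promoters) or the MEF2 site (2.92%).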

How the data were processed

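Single-cell RNA sequencing was done by the authors with the 10x Genomics 3′ chemistry. The deposited values are raw UMI counts per gene and barcode, made with Cell Ranger (version 2.1.1 per the labels, and 3.1.0 or, for P3, 3.0.0 per the file headers) on mm10, with no correction for free RNA. Labels also name Seurat 3.1.1. Barcodes with at least 2000 UMIs were kept and doublets stayed in the main result, with those of the highest Scrublet scores marked (scanpy 1.11.5). UMI sums per library and barcode class were fitted with edgeR 4.0.16 (quasi-likelihood, TMM, filterByExpr), with Benjamini-Hochberg adjustment at 0.05 over all genes. SEs are the log2 difference divided by the square root of F. The test was checked on simulated counts. Cell type ranges were drawn only from barcodes that were not Tnnt2-high. Barcodes of a range needed UMIs of 2 genes of its list and 300 CPM of the list. Erythroid barcodes were set aside first, and the other ranges could overlap. Named were the 6 members, up to 4 listed genes with the largest called change, and the 3 most alike genes. The members and lists were chosen with earlier results of these data known. Deviations from the stage means of libraries with the same replicate number correlated at 0.254 to 0.408 in the other barcodes and at 0.228 to 0.308 in Tnnt2-high barcodes from E12.5 to E16.5. In those pairs that include E10.5 they correlated at -0.0957 to 0.0055. Sums of the same library also share their origin. The main fits nevertheless used no block, so their p-values leave this pairing out. The blocked fit was an alternative. For stage comparisons its block was the replicate number in all stages of the fit, E10.5 included where it was in the fit. DESeq2 1.42.0, other scalings, filters, cuts and left-out libraries were the alternatives. The restriction to at least 1% mitochondrial UMIs and the removal of Myog or Myod1 barcodes were chosen after seeing the data.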

Additional observations from a re-analysis of the deposited data

Results flagged for a closer look

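For 4 genes the atrial minus ventricular difference was not the same at E16.5 as at E12.5, by a test of that difference itself without a library block. That test called 11.6% of all genes. With the library as a block Myl2 was called as well. On the log2 scale, without the block, the difference changed by 3.17 for Myl7, by 2.83 for Myl1, by 1.91 for Myl4 and by -1.09 for Myl3.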

How the results depend on the processing

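Alternatives were DESeq2, library size alone, no filter on low counts, a replicate block, left-out libraries, other cuts on Tnnt2, UMIs, mitochondrial share and chamber lists, and doublets removed. Of the values for single genes 1063 kept direction and side of the threshold, 24 gained a call, 32 lost one and 21 changed sign; the cause was not tested. With a library left out, the number of genes called of the 6 ran from 3 to 6 in other barcodes and from 2 to 5 in atrial-marked barcodes from E12.5 to E16.5, against 5 and 3; the range of stage values ran from 62.1 to 63.8 points for the share with both genes and from 91.7 to 95.25 for the median Myl2 part. Sign changes of Myl2 from E12.5 to E14.5, where no call was made, were 0.026 with library size alone, 0.0040 at a Tnnt2 cut of 750 CPM, 0.013 at 5000 UMIs and 0.12 with at least 1% mitochondrial UMIs, and -0.12 to 0.12 without single libraries. In other barcodes they were -0.11 for Myl6 with library size alone, 0.27 for Myl2 and 0.39 for Myl3 at 750 CPM, both called, and 0.086 for Myl3 with doublets removed. For Myl6 between chambers at E14.5 they were -0.015 at 750 CPM, -0.052 with at least 1% mitochondrial UMIs and a range of -0.037 to 0.072 without single libraries, and for the change to E16.5 0.079 at a cut of 3000 CPM. In atrial-marked barcodes from E12.5 to E16.5 they were -0.0082 for Myl1 and -0.0070 for Myl4 at 3000 CPM, -0.030 for Myl4 and 0.14 for Myl2 with chamber lists at 1 UMI and 0.047 for Myl2 with at least 1% mitochondrial UMIs, with ranges without single libraries of -0.0012 to 0.35 for Myl1 and -0.44 to 0.24 for Myl2.

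The replicate block called Myl7 from E14.5 to E16.5 in Tnnt2-high barcodes (-0.23, adjusted p = 0.037) and Myl2 in the change of the chamber difference, and changed no other call of the 6 genes. Counts over all genes differed by more than 1.5 times in these fits without a library: from 4274 to 2569 and 2748 without either E10.5 library (E12.5 against E10.5), from 5263 to 2965 and 3104 without either E14.5 library (E14.5 against E12.5), from 5741 to 3506 without E14.5 replicate 1 (E16.5 against E14.5), between chambers from 4425 to 2817 without E12.5 replicate 2, from 4316 to 2155 and 2634 at E14.5 and from 4601 to 2703 and 2697 at E16.5, in the change from 1501 to 705 and 717 and in atrial-marked barcodes from 3454 to 2117 and 2228 without either E16.5 library. At a Tnnt2 cut of 3000 CPM they were 1264 (E12.5 against E10.5) and 3646 of 6904 (Tnnt2-high against other, E10.5). Library size alone moved the median of all genes by -0.372 to 0.231 and the share of calls that were higher from 56.1% to 38.9% and from 49.2% to 22.1% for the first and last step of Tnnt2-high barcodes, from 50.6% to 20.8% in other barcodes, from 48.8% to 59.5% for Tnnt2-high against other at E16.5, from 52.6% to 67.9%, 52.2% to 67.9% and 49.6% to 72.4% between chambers, from 49.9% to 63.5% for their change, and from 50.8% to 31.5% in ventricular-marked and 51.7% to 33.2% in atrial-marked barcodes. E8.5 and P3 have 1 matrix each, E10.5 few Tnnt2-high barcodes, and free RNA was not removed, which limits low levels.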
